A study of Mus musculus with 9 samples.

Results

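Messenger RNA levels of 9 genes that take up, make, break down or exchange glutamate, glutamine and serine were followed in sorted cells of the adult mouse brain. The genes were Slc1a1, Slc1a2, Slc1a3, Glul, Glud1, Slc7a10, Slc7a11, Slc38a3 and Srr. Every non-control array probe that carried one of these names, or the older symbol Glud for Glud1, was taken, which gave 22 of the 41174 probes. All 22 passed the filters, and the 9 genes were among 24897 genes tested. Glud1, Slc7a10 and Slc38a3 had 1 probe each. For the other 6 genes the probe with the highest mean signal stands for the gene unless another is named.

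The cells came from 2 transgenic mouse lines and were sorted by fluorescence from dissected tissue. One line, Sox2-GFP, makes green fluorescent protein from the Sox2 promoter (Sox2 is a transcription factor of stem cells and some glia). The other, DCX-DsRed, makes the red protein DsRed from the promoter of Dcx, which encodes a microtubule-binding protein of newborn neurons. The 3 groups, with 3 arrays each, were hippocampal cells positive for Sox2-GFP, hippocampal cells positive for DCX-DsRed, and, from the germinal layer beside the lateral ventricle, the subventricular zone (SVZ), Sox2-GFP cells again. No treatment other than the dissociation of the tissue is named for any group. The age of the mice is given as 6 to 8 weeks with the samples and as 6 weeks in the text on the study's design, tissue of 10 dissections was pooled for an experiment, and each array carried amplified, Cy3-labelled RNA of 1000 sorted cells. The labels do not say that the replicates A, B and C of a group came from separate pools, so p-values speak only of the spread among these arrays, part of which may be technical. In such pools of cells, fewer cells of a type and less RNA per cell cannot be told apart.

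Glutamate, the main excitatory transmitter of the brain, is cleared from the space around synapses by sodium-driven transporters, chiefly those of astrocytes. Astrocytes turn part of it into glutamine, which is passed back to neurons and made into glutamate again, while another part is burned in mitochondria. D-serine and glycine act together with glutamate at NMDA receptors, and a cystine-glutamate exchanger ties glutamate release to the supply of the antioxidant glutathione. Radial glia-like stem cells of the adult brain share several of these astrocyte genes.

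Of the 9 genes, Slc7a10, a transporter of serine and glycine, was higher in both groups of Sox2-GFP cells than in DCX-DsRed cells, by 9.23-fold in the hippocampus and by 13.2-fold for SVZ against hippocampal DCX-DsRed cells. It was the only one of the 9 past an adjusted p of 0.05 in these comparisons, and none of the 9 passed between the regions. The glutamate transporters Slc1a2 and Slc1a3 and the cystine-glutamate exchanger Slc7a11 stood far lower on 1 hippocampus Sox2-GFP array, replicate C, than on replicates A and B, and without this array the hippocampal differences of both transporters turned sign. For Slc1a2 the sign also turned with the probe used. Levels are log2 signals relative to the 75th percentile of the array's own probes. A level of 0 is therefore that percentile, and each unit of difference doubles the signal. Single values are given in the order of replicates A, B and C, means with ± SD and n = 3, and differences with their standard error (SE). A gene is said to have changed where limma's test on all 9 arrays gave a Benjamini-Hochberg adjusted p under 0.05 over all 24897 genes.

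**Figure D1:**
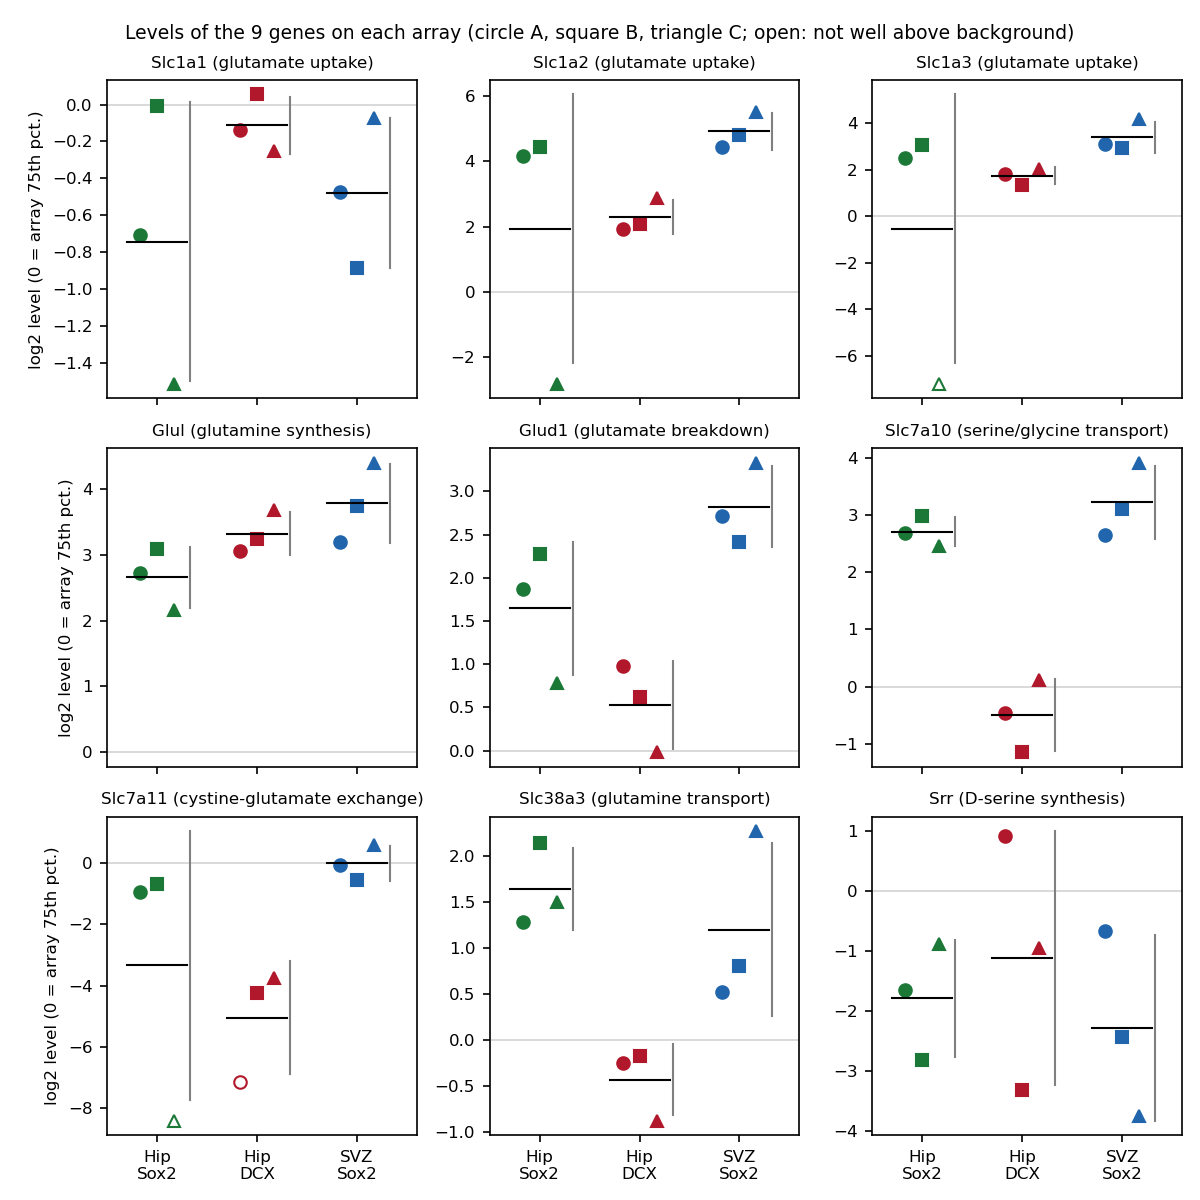
Levels of the 9 genes on each of the 9 arrays, on the y axis (log2, 0 at the 75th percentile of the array), with 1 panel a gene and its own y scale, by group on the x axis (Hip, hippocampus). Symbols mark replicates A, B and C, open symbols a probe not well above background, horizontal lines the group mean and vertical lines 1 SD (n = 3). Slc7a10 separates both Sox2-GFP groups from DCX-DsRed cells, and hippocampus Sox2-GFP replicate C lies far below the other arrays of its group for Slc1a2, Slc1a3 and Slc7a11.

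Between 80.2% and 88.3% of probes were well above background on each array, and no spot was saturated. The arrays lay on 3 slides. Slide 1 held DCX-DsRed A and B and SVZ A, slide 2 held hippocampus Sox2-GFP A and B, and slide 3 held the remaining 4 arrays, with at least 1 of each group. The levels of the Sox2 and Dcx mRNAs did not separate the groups by reporter. Sox2 lay between 1.30 and 1.71 on the DCX-DsRed arrays, between -0.95 and 0.94 on the hippocampus Sox2-GFP arrays, and at 0.92, 2.07 and 2.28 on the SVZ arrays, 2 of which were above every DCX-DsRed array. Dcx lay between -1.29 and 1.28 on the DCX-DsRed arrays and at 2.57 and 3.05 on SVZ A and B, was lowest on hippocampus Sox2-GFP replicate C (-2.88), and SVZ replicate C was also low (-2.36). The mean over 8 neural stem and progenitor markers lay between -1.52 and 0.78 on hippocampus Sox2-GFP arrays, between -0.64 and -0.19 on DCX-DsRed arrays and between 0.48 and 1.22 on SVZ arrays, and 7 or 8 of the 8 were well above background on each array. The mean over 8 immature neuron markers lay between -0.24 and 1.096 on DCX-DsRed arrays, between -1.95 and -0.10 on hippocampus Sox2-GFP arrays and between -0.69 and 1.85 on SVZ arrays. The mean over 12 markers of myelinating oligodendrocytes was highest in DCX-DsRed cells, at 3.98 to 4.28, against -3.45 to 0.42 on hippocampus Sox2-GFP and -0.17 to 1.60 on SVZ arrays. The mean over 7 choroid plexus markers was high on the hippocampus Sox2-GFP arrays alone, at 1.03 to 3.20 against -4.34 to -2.98 on the other 6 arrays. The part of these other cells in the results below was not tested unless a value is given.

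Uptake of glutamate rests on Slc1a1, Slc1a2 and Slc1a3. Slc1a2 (GLT-1) encodes the chief glutamate transporter of astrocytes. It stood at 4.16, 4.44 and -2.81 on hippocampus Sox2-GFP arrays, at 1.91, 2.07 and 2.87 on DCX-DsRed arrays, and at 4.42, 4.80 and 5.51 on SVZ arrays. The means of 1.93 ± 4.11, 2.29 ± 0.51 and 4.91 ± 0.55 (SD, n = 3 each) show the wide spread of the first group. The SVZ arrays were all above the DCX-DsRed arrays, and hippocampus Sox2-GFP A and B stood just below or within the SVZ range, while replicate C was the lowest of all 9. The difference of hippocampus Sox2-GFP minus DCX-DsRed was -0.36 (SE 1.70, adjusted p = 0.941), with a 95% interval of -4.26 to 3.54. Leaving out hippocampus Sox2-GFP replicate C gave 2.01 (SE 0.46, adjusted p = 0.0693). With all 9 arrays the other 2 probes of Slc1a2 gave 0.20 (SE 1.56, adjusted p = 0.967) and 1.54 (SE 1.12, adjusted p = 0.548) and the mean over probes 0.46, so no direction is given for Slc1a2. The difference of SVZ minus DCX-DsRed was 2.62 (SE 1.70, adjusted p = 0.578). Replicate C takes no part in that difference but widens the shared spread, and without it the same difference of 2.62 had an SE of 0.41 and an adjusted p of 0.0202. It passed in 3 of 22 alternative fits, with an adjusted p of up to 0.791.

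Slc1a3 (GLAST) encodes the glutamate transporter of astrocytes and radial glia. It stood at 2.51, 3.06 and -7.20 on hippocampus Sox2-GFP arrays, at 1.83, 1.35 and 2.04 on DCX-DsRed arrays, and at 3.12, 2.92 and 4.16 on SVZ arrays. On hippocampus Sox2-GFP replicate C the probe used was not well above background (-7.20), so by this probe only 2 of the 3 arrays of that group measured the gene. Hippocampus Sox2-GFP A and B lay above every DCX-DsRed array. The difference between the hippocampal groups was -2.29 (SE 2.35, adjusted p = 0.677) and 1.04 (SE 0.47, adjusted p = 0.336) without replicate C. SVZ minus DCX-DsRed was 1.66 (SE 2.35, adjusted p = 0.840), and 1.66 (SE 0.42, adjusted p = 0.0885) without that array. All SVZ arrays again lay above all DCX-DsRed arrays.

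Every probe of both genes read low on replicate C. Replicate C minus the mean of A and B was -7.11, -6.40 and -4.37 for the 3 probes of Slc1a2, all well above background on the 3 arrays. Of the 3 probes of Slc1a3, 1 was well above background on replicate C and differed by -7.46. The other 2 were not and give only bounds, being at least 504-fold and at least 549-fold lower there than the mean of A and B. These bounds use the lowest signal well above background of any probe on replicate C. The limit of a given probe may lie higher, which would make its bound smaller. One Slc1a2 probe of these 3 was listed on the strand opposite to the other 2. A further probe, named 2900019G14Rik in the file, which is an older symbol of Slc1a2 and lies outside the rule for the 9 genes, read 2.63, 2.997 and -8.43 in hippocampus Sox2-GFP cells, the last not well above background. Only 0.438% of the genes tested were as far below A and B on replicate C as Slc1a2, where the difference of the median gene was -0.39. The 15 astrocyte markers, all tested and all well above background on every array, had a mean of 2.16, 2.36 and -1.34 on hippocampus Sox2-GFP arrays, -0.14, 0.19 and 0.48 on DCX-DsRed arrays, and 2.12, 2.46 and 3.28 on SVZ arrays. The median of their differences between replicate C and the mean of A and B was -3.18, and their part in the values of Slc1a2 and Slc1a3 was not tested.

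Slide moved with this array too. Slide 2 held hippocampus Sox2-GFP A and B only, so a fit with slide as a fixed block, and values within slide 3, rest for this group on replicate C. Within slide 3, hippocampus Sox2-GFP minus DCX-DsRed was -5.69 for Slc1a2, and Slc1a3, not well above background on replicate C, was at least 301-fold lower there than on the DCX-DsRed array. With slide as a block both passed with a lower level in Sox2-GFP than in DCX-DsRed cells (adjusted p of 0.00496 and 0.00470), where the fitted size for Slc1a3 is no measured value. Within the same slide SVZ minus DCX-DsRed was 2.28 for Slc1a2 and 1.502 for Slc1a3. By the probes used, the hippocampal difference without replicate C (arrays A and B of slide 2) and that within slide 3 had opposite signs for both genes.

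The stretches of 250 bases before the start sites of Slc1a2 (chr2:102706188-102706437, plus strand) and Slc1a3 (chr15:8710808-8711057, minus strand) are shown because both genes stood low on replicate C. They come from the RefSeq promoter table (GRCm38.p6), which matched 8 of the 9 genes, and are written 5′ to 3′ on the gene's strand. Capitals mark matches on either strand of the GC box GGGCGG, the TATA box TATAAA, the CCAAT box CCAAT, the amino acid response element TGATGNAA or the core of the antioxidant response element TGACNNNGC. No matches of different motifs overlapped in the windows of the 8 genes.
Slc1a2: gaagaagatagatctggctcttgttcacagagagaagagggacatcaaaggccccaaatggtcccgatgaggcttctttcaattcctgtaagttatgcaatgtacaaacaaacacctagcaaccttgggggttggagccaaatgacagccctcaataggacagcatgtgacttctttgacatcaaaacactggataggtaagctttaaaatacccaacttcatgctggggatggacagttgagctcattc
Slc1a3: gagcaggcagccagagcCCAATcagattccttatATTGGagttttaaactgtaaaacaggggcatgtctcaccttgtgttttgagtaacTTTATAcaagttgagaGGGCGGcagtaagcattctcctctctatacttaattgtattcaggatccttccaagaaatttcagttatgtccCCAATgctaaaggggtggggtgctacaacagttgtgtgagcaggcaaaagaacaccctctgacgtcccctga
The Slc1a2 window held no match of the 5 motifs. The Slc1a3 window held 3 CCAAT boxes, 1 GC box and 1 TATAAA, the last 161 bases before the start site. Of all 32851 windows in the table, 33.8% held a CCAAT box, 32.7% a GC box and 12.4% a TATAAA. Both windows had 44.8% G and C bases, where the median window of the table had 52.4%. A match is a description of letters, and nothing follows from its absence.

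Slc1a1 (EAAC1) encodes a glutamate and cysteine transporter found mainly in neurons. It stood at -0.71, -0.01 and -1.51 on hippocampus Sox2-GFP arrays, at -0.14, 0.05 and -0.25 on DCX-DsRed arrays, and at -0.47, -0.89 and -0.07 on SVZ arrays. The means were -0.74 ± 0.75, -0.11 ± 0.16 and -0.48 ± 0.41 (SD, n = 3 each), and the groups overlapped in each comparison. The differences were -0.63 (SE 0.43, adjusted p = 0.513) for hippocampus Sox2-GFP minus DCX-DsRed, 0.26 (SE 0.43, adjusted p = 0.859) for SVZ minus hippocampus Sox2-GFP and -0.37 (SE 0.43, adjusted p = 0.800) for SVZ minus DCX-DsRed. Its other probe read the hippocampal comparison with the opposite sign, at 1.18 (SE 0.72, adjusted p = 0.466), and no order of the groups can be given for this gene.

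Synthesis and breakdown were read by Glul and Glud1. Glul encodes glutamine synthetase, which joins glutamate and ammonia and is known from astrocytes and oligodendrocytes. It stood at 2.73, 3.08 and 2.16 on hippocampus Sox2-GFP arrays, at 3.05, 3.23 and 3.68 on DCX-DsRed arrays, and at 3.20, 3.74 and 4.40 on SVZ arrays. The means were 2.66 ± 0.46, 3.32 ± 0.32 and 3.78 ± 0.60 (SD, n = 3 each). The range over the 9 arrays was 2.24, and 54.8% of the genes tested had a wider one. The SVZ arrays lay above the hippocampus Sox2-GFP arrays without overlap, by 1.12 (SE 0.42, adjusted p = 0.396), and overlapped with the DCX-DsRed arrays (0.46, SE 0.42, adjusted p = 0.721). Hippocampus Sox2-GFP minus DCX-DsRed was -0.66 (SE 0.42, adjusted p = 0.472). The second Glul probe had the same signs, at 0.61 (SE 0.43) between the regions and -0.53 (SE 0.43) between the hippocampal groups. With slide as a block the difference between the regions was 1.85, and within slide 3 it was 1.91. Both rest for hippocampus Sox2-GFP on replicate C, which held the lowest Glul value of the 9 arrays (2.16). Without replicate C the difference was 0.87 (SE 0.44, adjusted p = 0.647).

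Glud1 encodes glutamate dehydrogenase, the mitochondrial enzyme that feeds glutamate into the citric acid cycle. It stood at 1.87, 2.28 and 0.79 on hippocampus Sox2-GFP arrays, at 0.98, 0.62 and -0.02 on DCX-DsRed arrays, and at 2.72, 2.42 and 3.33 on SVZ arrays. The group means were 1.65 ± 0.77, 0.53 ± 0.51 and 2.82 ± 0.47 (SD, n = 3 each). Every SVZ array lay above every array of the other groups, and only replicate C of hippocampus Sox2-GFP fell inside the DCX-DsRed range. SVZ minus DCX-DsRed was 2.29 (SE 0.49, 4.91-fold), with an adjusted p of 0.0682, and SVZ minus hippocampus Sox2-GFP was 1.18 (SE 0.49, adjusted p = 0.439). Hippocampus Sox2-GFP minus DCX-DsRed was 1.12 (SE 0.49, adjusted p = 0.296). SVZ minus DCX-DsRed passed the threshold in 6 of 22 alternative fits (adjusted p from 0.0248 to 0.190), among them the fit without hippocampus Sox2-GFP replicate C (adjusted p = 0.0269) and that with slide as a block (0.0392), and was 2.89 within slide 3.

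Exchange across the membrane was read by Slc7a10 and Slc7a11. Slc7a10 (Asc-1) encodes a sodium-independent exchanger of small neutral amino acids that carries serine, glycine and D-serine. It stood at 2.69, 2.98 and 2.46 on hippocampus Sox2-GFP arrays, at -0.47, -1.14 and 0.12 on DCX-DsRed arrays, and at 2.64, 3.11 and 3.91 on SVZ arrays. The group means were 2.71 ± 0.26, -0.50 ± 0.63 and 3.22 ± 0.64 (SD, n = 3 each), and all 6 Sox2-GFP arrays lay above all 3 DCX-DsRed arrays. Hippocampus Sox2-GFP minus DCX-DsRed was 3.21 (SE 0.46, 9.23-fold, adjusted p = 0.0116), and SVZ minus DCX-DsRed was 3.72 (SE 0.46, 13.2-fold, adjusted p = 0.0126). These comparisons share the DCX-DsRed arrays, and the second differs in region and in reporter, which cannot be told apart. SVZ minus hippocampus Sox2-GFP was 0.51 (SE 0.46, adjusted p = 0.725), with a 95% interval of -0.53 to 1.56.

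Both calls of Slc7a10 were lost without DCX-DsRed replicate A, at an adjusted p of 0.0521 and 0.0573, where the differences were 3.22 and 3.73. They held in the other 21 alternative fits of each comparison. Within slide 3 the differences were 2.34 and 3.39. Unlike Slc1a2 and Slc1a3, Slc7a10 read about the same on all hippocampus Sox2-GFP arrays, with replicate C 0.37 below the mean of A and B, a value that 50.6% of genes reached or passed. The mean of 6 ependymal markers, of the ciliated cells that line the ventricles, lay between -0.77 and 1.34 on hippocampus Sox2-GFP arrays, between -5.58 and -4.41 on DCX-DsRed arrays and between -2.80 and -0.93 on SVZ arrays. The astrocyte mean given above was higher on hippocampus Sox2-GFP A and B and on the SVZ arrays than on the DCX-DsRed arrays, but not on replicate C. The part of these cell types in the level of Slc7a10 was not tested.

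The window before the start site of Slc7a10 (chr7:35186135-35186384, plus strand) is shown because this gene was the one that changed, and that of Slc7a11 (chr3:50443614-50443863, minus strand) because it held matches of the amino acid response element.
Slc7a10: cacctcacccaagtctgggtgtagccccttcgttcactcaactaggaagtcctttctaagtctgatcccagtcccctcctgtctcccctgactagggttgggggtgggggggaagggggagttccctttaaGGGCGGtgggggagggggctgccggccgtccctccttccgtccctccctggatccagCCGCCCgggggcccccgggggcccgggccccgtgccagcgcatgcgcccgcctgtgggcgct
Slc7a11: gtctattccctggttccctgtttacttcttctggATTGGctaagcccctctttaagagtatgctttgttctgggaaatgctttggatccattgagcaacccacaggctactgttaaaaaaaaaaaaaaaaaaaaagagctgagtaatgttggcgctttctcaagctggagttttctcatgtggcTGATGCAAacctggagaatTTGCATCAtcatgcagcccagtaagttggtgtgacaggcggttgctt
The Slc7a10 window held 2 GC boxes and no other match, with 69.6% G and C bases. The Slc7a11 window held 2 matches of TGATGNAA, both within the 100 bases before the start site, and 1 CCAAT box, with 43.2% G and C bases. A match of TGATGNAA was present in 3.45% of the 32851 windows and one of TGACNNNGC in 10.2%. Among the 8 genes with a window, the G and C share of Slc1a1, Glul, Glud1, Slc7a10 and Srr lay between 64.8% and 82.0%, above that of Slc1a2, Slc1a3 and Slc7a11, the 3 genes that stood lowest on replicate C against A and B. This split was seen after the values were known and has no test.

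Slc7a11 (xCT) encodes the light chain of the exchanger that brings in cystine and releases glutamate. It stood at -0.94, -0.68 and -8.40 on hippocampus Sox2-GFP arrays, at -7.14, -4.24 and -3.75 on DCX-DsRed arrays, and at -0.07, -0.54 and 0.58 on SVZ arrays. The values of -8.40 and -7.14 were not well above background, so by the probe used 2 of 3 arrays in each hippocampal group measured the gene. By this probe every SVZ array lay above every hippocampal array, and hippocampus Sox2-GFP A and B lay above every DCX-DsRed array. SVZ minus DCX-DsRed passed in 1 of 22 alternative fits, with an adjusted p of up to 0.612. It was 5.03 (SE 1.94, adjusted p = 0.298) with all arrays, and 5.03 (SE 0.86, adjusted p = 0.0262) once replicate C of hippocampus Sox2-GFP was left out. Hippocampus Sox2-GFP minus DCX-DsRed was 1.70 (SE 1.94, adjusted p = 0.710) and 4.23 (SE 0.96, adjusted p = 0.0667) without that array. SVZ minus hippocampus Sox2-GFP was 3.33 (SE 1.94, adjusted p = 0.585) and 0.80 (SE 0.96, adjusted p = 0.909) without it.

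All 4 probes of Slc7a11 were lower on replicate C than on A and B. Only 1 of them was well above background on replicate C, with a difference of -1.64 from the mean of A and B. The other 3 were at least 7.72-fold to at least 41.7-fold lower there. One of the 4 was below the well-above-background flag on all 3 DCX-DsRed arrays and gives only a bound. By that probe Slc7a11 was at least 10.6-fold higher in SVZ than in DCX-DsRed cells (adjusted p = 0.189 with every probe tested). In hippocampus Sox2-GFP cells it read -3.63, -2.86 and -8.34, the last not well above background. These arrays overlapped with the DCX-DsRed arrays (adjusted p = 0.549), and no bound is given for them. The bound sets the SVZ mean against the lowest well-above-background signal of any probe on each DCX-DsRed array, or the probe's own if higher. Here too the limit of the probe itself may lie higher. Within slide 3 the probe used for Slc7a11 was at least 5.45-fold lower on hippocampus Sox2-GFP replicate C than on the DCX-DsRed array. With slide as a block the sign of its hippocampal difference turned (adjusted p = 0.134), which rests on that array.

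Slc38a3 (SNAT3) encodes a glutamine carrier of astrocytes, through which glutamine leaves or enters the cell. It stood at 1.28, 2.15 and 1.51 on hippocampus Sox2-GFP arrays, at -0.25, -0.17 and -0.88 on DCX-DsRed arrays, and at 0.52, 0.81 and 2.28 on SVZ arrays. The group means were 1.65 ± 0.45, -0.44 ± 0.39 and 1.203 ± 0.94 (SD, n = 3 each). Like Slc7a10, it was higher on all 6 Sox2-GFP arrays than on any DCX-DsRed array, and replicate C stood between A and B. Hippocampus Sox2-GFP minus DCX-DsRed was 2.08 (SE 0.52, 4.23-fold), but its adjusted p of 0.0749 missed the threshold. It passed in 2 of 22 alternative fits, without SVZ replicate C (0.0367) and with an intensity trend in the prior (0.0483), and was 2.39 within slide 3. SVZ minus DCX-DsRed was 1.64 (SE 0.52, adjusted p = 0.195), and SVZ minus hippocampus Sox2-GFP was -0.44 (SE 0.52, adjusted p = 0.795).

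Srr encodes serine racemase, which makes D-serine from L-serine. It stood at -1.65, -2.82 and -0.89 on hippocampus Sox2-GFP arrays, at 0.91, -3.32 and -0.96 on DCX-DsRed arrays, and at -0.66, -2.44 and -3.75 on SVZ arrays. The means were -1.79 ± 0.97, -1.12 ± 2.12 and -2.28 ± 1.55 (SD, n = 3 each), and the arrays of a group differed by more than the groups did. The differences were -0.67 (SE 1.16, adjusted p = 0.822) between the hippocampal groups, -0.49 (SE 1.16, adjusted p = 0.906) between the regions and -1.16 (SE 1.16, adjusted p = 0.7497) for SVZ minus DCX-DsRed. Its 5 probes disagreed, with hippocampal differences from -2.83 to 1.86, and no direction is given for Srr.

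**Figure D2:**
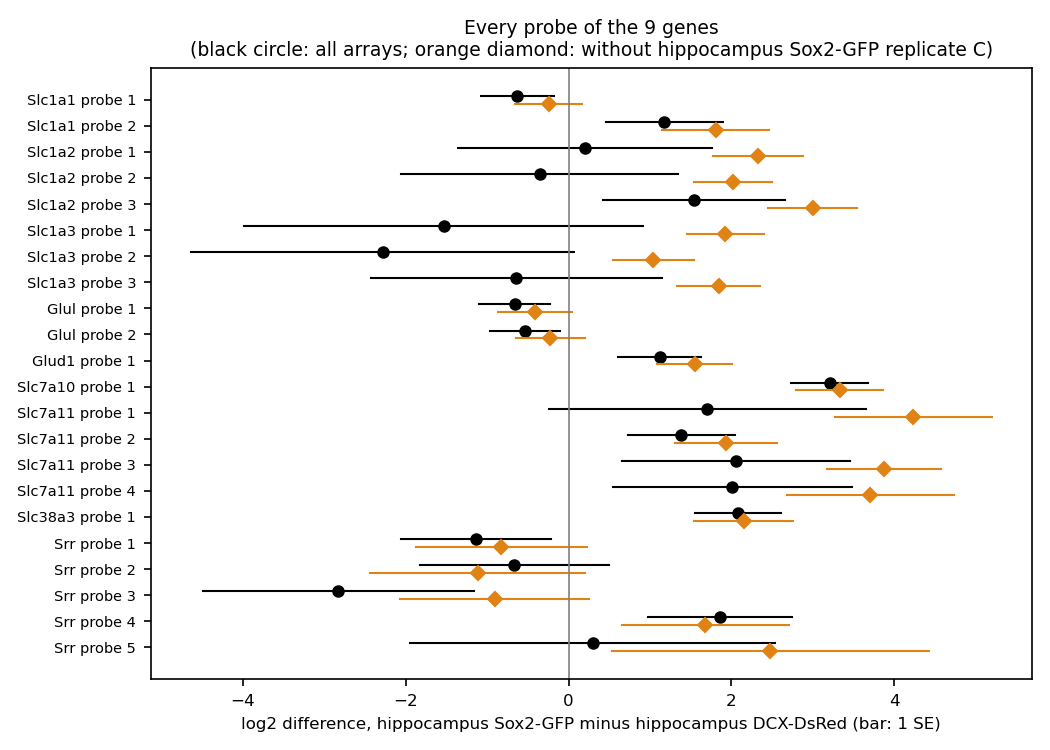
Difference of hippocampus Sox2-GFP minus hippocampus DCX-DsRed for each of the 22 probes (x axis, log2; bars, 1 SE), with all 9 arrays (black circles) and without hippocampus Sox2-GFP replicate C (orange diamonds). All probes of Slc1a2, Slc1a3 and Slc7a11 move to the right without replicate C, while Slc7a10 and Slc38a3 barely move and the probes of Slc1a1 and Srr lie on both sides of 0.

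The probes of the genes with several were thus of 2 kinds. Those of Slc1a2, Slc1a3, Slc7a11 and Glul gave 1 sign within a gene in the hippocampal comparison once replicate C was left out, whereas those of Slc1a1 and Srr did not. Of the 22 probes, 19 were lower on replicate C than on both A and B, the exceptions being the single probe of Slc38a3 and 2 of the 5 of Srr. The same share over all probes was not counted, and the median gene was itself -0.39 there against the mean of A and B. For Slc1a1, Glul and Glud1, 27.3%, 37.7% and 24.7% of all genes were as low or lower on replicate C.

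Set side by side, the hippocampal groups differed past the threshold in 1 of the 9 genes, where 3.2% of all genes tested did. In 2 of the 9, Slc7a10 and Slc38a3, the Sox2-GFP arrays were all above the DCX-DsRed arrays, against 11.5% of all genes, and the same 2 had an unadjusted p under 0.05, as did 16.9% of all genes. The median difference of the 9 was -0.36, and that of all genes -0.08. Without hippocampus Sox2-GFP replicate C, 6 of the 9 lay above without overlap, where 21.9% of all genes did with 2 arrays against 3, and 1 of the 9 passed (3.15% of all genes). The median difference of the 9 was then 1.55. Replicate C was left out because Slc1a2, Slc1a3 and Slc7a11 stood low on it. The rise in these values follows in part from that choice and is no separate support.

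Between the regions, limma's test called none of the 9 genes (0.402% of all genes were called), and 2 of the 9, Glul and Glud1, had an unadjusted p under 0.05, as did 10.8% of all genes. SVZ lay above hippocampus Sox2-GFP without overlap for 3 genes, Glul, Glud1 and Slc7a11, where 8.86% of all genes did. By the other probes of Slc7a11 and the second of Glul the regions overlapped. By the other 2 probes of Slc1a2, unlike the probe used, SVZ lay above without overlap. The median difference of the 9 was 1.12, against 0.08 for all genes. With hippocampus Sox2-GFP replicate C left out it was 0.61, none of the 9 was called by limma (0.41% of all genes), and the same 3 genes lay above without overlap (11.2% of all genes). The differences of Slc1a2 (2.98, SE 1.70, adjusted p = 0.581) and Slc1a3 (3.94, SE 2.35, adjusted p = 0.593) were 0.61 each without replicate C. The other 2 probes of Slc1a2 then gave 1.24 and 1.13 (adjusted p of 0.565 and 0.620 with every probe tested). With slide as a block, where this array alone stands for its group, Slc1a2 was 7.99 and it, Slc1a3 and Slc7a11 passed (adjusted p of 0.00259, 0.00261 and 0.0159). The probes used for Slc1a3 and Slc7a11 were not well above background on that array, and within slide 3 they were at least 852-fold and at least 74.2-fold higher on the SVZ arrays.

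SVZ cells and hippocampal DCX-DsRed cells differed past the threshold in 1 of the 9 genes, where 1.53% of all genes did. SVZ lay above without overlap for 6 of the 9, namely Slc1a2, Slc1a3, Glud1, Slc7a10, Slc7a11 and Slc38a3, where 10.7% of all genes did. An unadjusted p under 0.05 was found for 4 of the 9 and for 13.7% of all genes. The median difference of the 9 was 1.66, and that of all genes -0.02. Without hippocampus Sox2-GFP replicate C in the shared spread, 4 of the 9 passed, Slc1a2, Glud1, Slc7a10 and Slc7a11, where 3.43% of all genes did. With every probe tested and replicate C left out, 2 other probes of Slc1a3 had an adjusted p of 0.0413 and 0.0375. The probe used for Slc1a3 missed in that fit (0.0983), as did 1 of the 4 probes of Slc7a11 (0.249). Replicate C is singled out because Slc1a2, Slc1a3 and Slc7a11 stood low on it, so leaving it out narrows the spread of these genes. The passes of Slc1a2, Slc7a11 and the Slc1a3 probes without replicate C are therefore no separate support. The 3 comparisons share arrays in pairs, and their values are given side by side only.

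**Figure D3:**
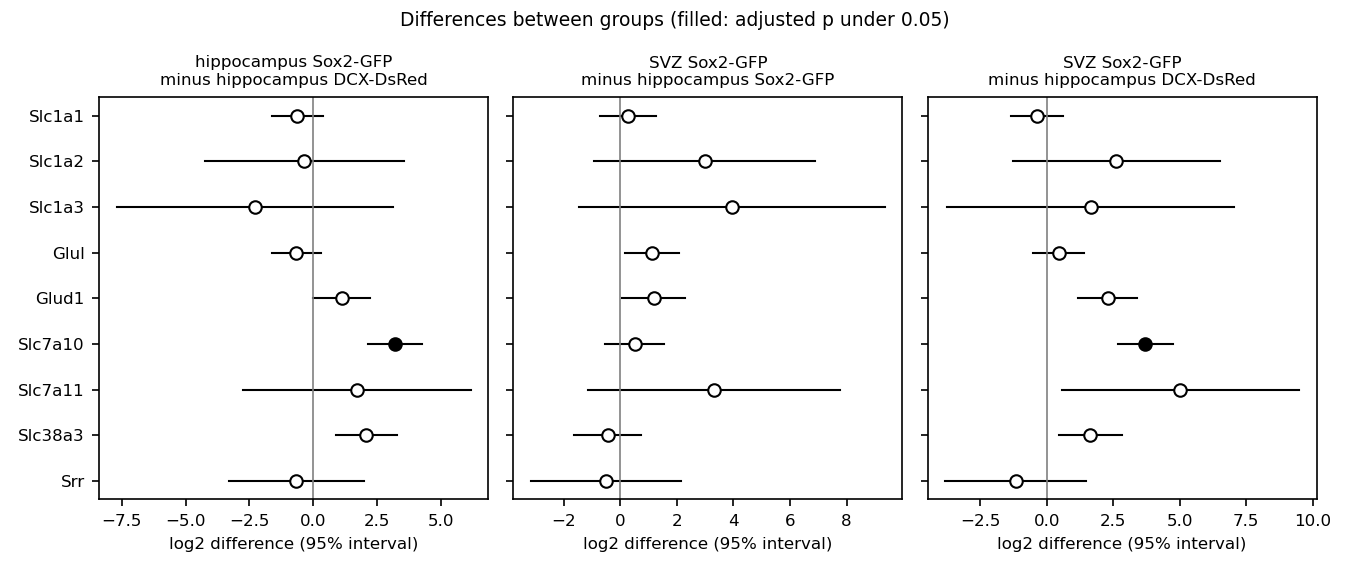
Differences between groups for the 9 genes (x axis, log2, with 95% intervals), with 1 panel for each of the 3 comparisons. Filled symbols have an adjusted p under 0.05, which is Slc7a10 against DCX-DsRed cells in both panels with DCX-DsRed cells. The widest intervals are those of Slc1a2, Slc1a3, Slc7a11 and Srr.

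**Figure D4:**
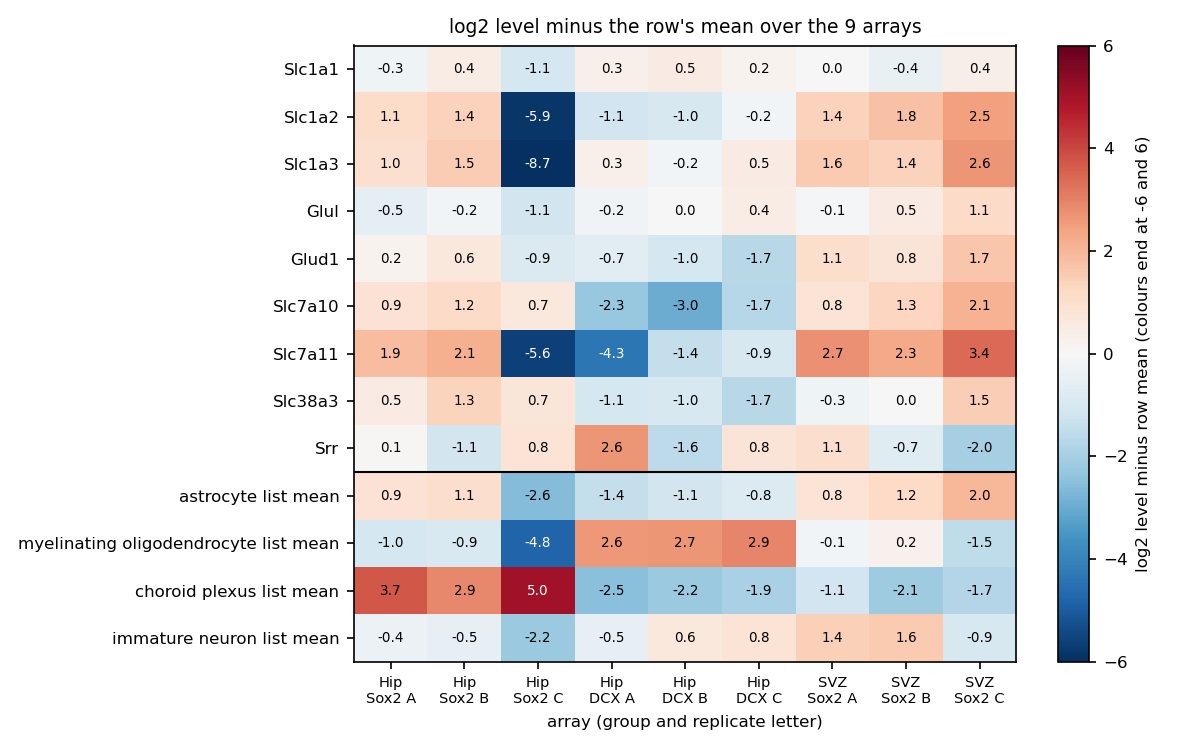
Level of each of the 9 genes and mean level of 4 marker lists on each array (x axis), less the mean over the 9 arrays (log2, numbers and colour). The column of hippocampus Sox2-GFP replicate C holds the lowest values of Slc1a1, Slc1a2, Slc1a3, Glul and Slc7a11. It also holds the lowest astrocyte, myelinating oligodendrocyte and immature neuron means and the highest choroid plexus mean.

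Around the 9 genes, 75 other genes of glutamate, glutamine, serine and GABA metabolism and of glutamate receptors were tested in 7 lists. In the hippocampal comparison 2 of the 75 changed (3.2% of all genes did), both receptors and both lower in Sox2-GFP cells, and 16 had an unadjusted p under 0.05 (16.9% of all genes). The median difference of the 75 was -0.16. Gria4, a subunit of AMPA receptors, stood at -2.47, -2.48 and -2.42 in Sox2-GFP cells and at 0.42, 0.93 and 0.26 in DCX-DsRed cells, a difference of -2.99 (SE 0.53, adjusted p = 0.0258). Grm7, a metabotropic glutamate receptor, stood at 0.28, 0.39 and -1.06 in Sox2-GFP cells and at 2.29, 2.26 and 2.17 in DCX-DsRed cells, a difference of -2.37 (SE 0.43, adjusted p = 0.0282). Neither pair of groups overlapped. Gria4 was called in 16 and Grm7 in 17 of 22 alternative fits, with an adjusted p of up to 0.127 and 0.104. The mean of the myelinating oligodendrocyte markers was likewise higher on all DCX-DsRed arrays than on the hippocampus Sox2-GFP arrays. Within the latter it was 0.32, 0.42 and -3.45, so it was lowest on replicate C, as was Grm7 but not Gria4. The part of these cells was not tested.

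In the other 6 lists no gene passed between the hippocampal groups, and the gene with the smallest p is given for each. Shmt2, which splits serine into glycine and a one-carbon unit in mitochondria, differed by -1.43 (adjusted p = 0.207; 2 of 12 genes of serine and glycine metabolism had an unadjusted p under 0.05). Slc38a1, a glutamine carrier, differed by 2.51 (adjusted p = 0.181; 1 of 11). Gpt2, the mitochondrial alanine aminotransferase, differed by -2.15 (adjusted p = 0.0749; 4 of 12). Slc3a2, the heavy chain that pairs with Slc7a10 and Slc7a11 at the membrane, differed by 1.57 (adjusted p = 0.155; 1 of 7), and was 2.03, 1.94 and 3.44 in Sox2-GFP cells against 1.08, 0.36 and 1.27 in DCX-DsRed cells, without overlap. Slc17a8, a vesicular glutamate transporter, differed by 0.91 (adjusted p = 0.247; 2 of 5), and Abat, which breaks down GABA, by 2.39 (adjusted p = 0.0665; 1 of 7).

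Between the regions none of the 75 passed limma's test (0.402% of all genes did), and 10 had an unadjusted p under 0.05 (10.8% of all genes). The smallest p of each list belonged to Phgdh, the first enzyme of serine synthesis (-0.86, adjusted p = 0.408), Slc38a7, a glutamine carrier (1.48, adjusted p = 0.443), Gpt2 (1.24, adjusted p = 0.455), Slc3a2 (-0.74, adjusted p = 0.636), Slc1a7, a glutamate transporter (-0.78, adjusted p = 0.437), Gad2, which makes GABA (4.48, adjusted p = 0.188), and Grik5, a kainate receptor subunit (1.67, adjusted p = 0.311). The median of the GABA list was 1.81, where that of all genes was 0.08, and 2 of its 7 genes had an unadjusted p under 0.05. The sign of Phgdh turned when the mean over its probes was used (0.11).

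For SVZ minus DCX-DsRed, 2 of the 75 genes changed (1.53% of all genes did), both higher in SVZ cells, and 11 had an unadjusted p under 0.05 (13.7% of all genes). Slc25a18, a mitochondrial glutamate carrier, stood at 1.82, 1.11 and 2.48 in SVZ cells and at -1.66, -0.999 and -0.23 in DCX-DsRed cells, a difference of 2.77 (SE 0.53, adjusted p = 0.0473). This call was lost in 14 of 22 alternative fits. Grik5 stood at -0.31, -0.38 and -0.30 in SVZ cells and at -3.58, -4.31 and -3.86 in DCX-DsRed cells, a difference of 3.59 (SE 0.53, adjusted p = 0.0202), and its call was lost in 7 of 22, where the adjusted p reached 0.0829. The smallest p of the other lists belonged to Slc1a4, a carrier of serine and other neutral amino acids (3.04, adjusted p = 0.260), Slc38a2, a glutamine carrier (-2.70, adjusted p = 0.202), Slc3a2 (0.82, adjusted p = 0.546), Slc1a7 (-0.61, adjusted p = 0.467) and Gad2 (2.84, adjusted p = 0.300).

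**Figure D5:**
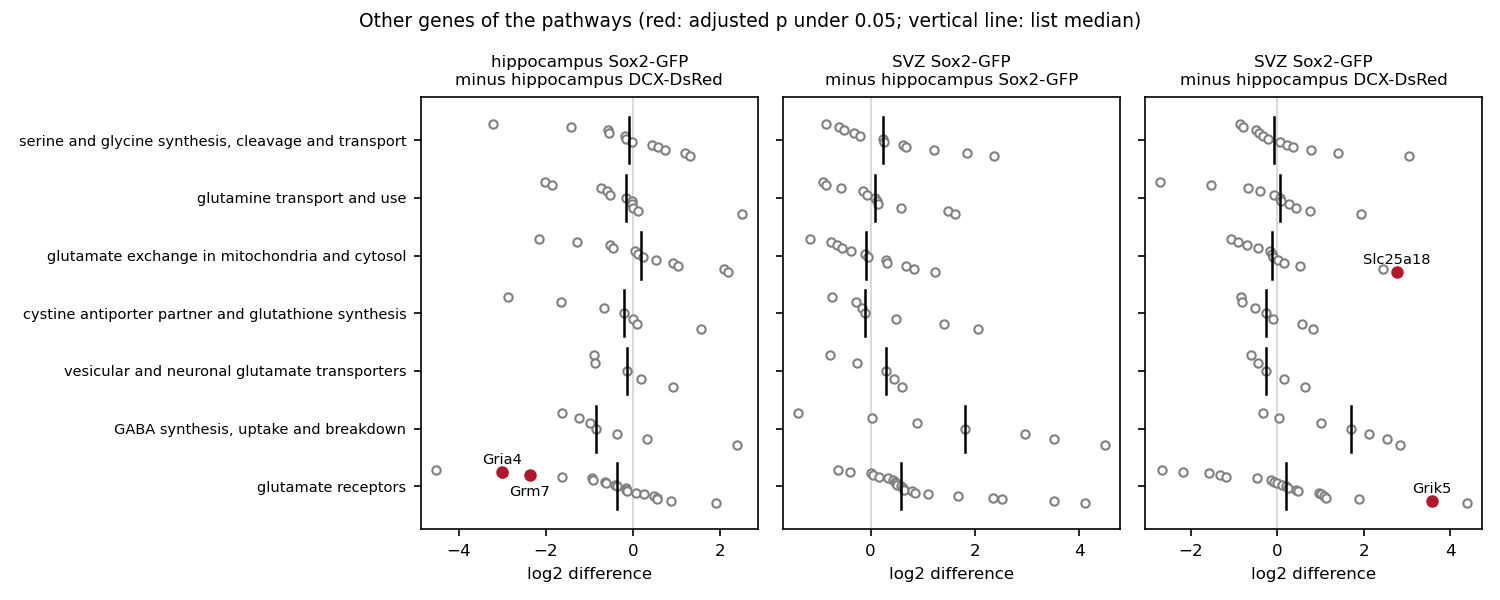
Differences of the 75 other pathway genes (x axis, log2), by list on the y axis and with 1 panel a comparison. Open symbols missed an adjusted p of 0.05, red symbols passed it, and vertical lines mark the list's median. The only red symbols are Gria4 and Grm7 between the hippocampal groups and Slc25a18 and Grik5 for SVZ minus DCX-DsRed, and most lists lie around 0.

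Over the 9 arrays, the gene whose levels ran most like Slc7a10 was Pank2 (Pearson r = 0.981). Those most like Slc38a3 were Ccdc173 (0.980) and Casd1 (0.967), and those most like Glud1 were Gabrd (0.981) and Olfr202 (0.977). For Slc1a2 they were Ints6 (0.991) and Olfr1211 (0.988), for Slc1a3 Cadm1 (0.993) and Tmub2 (0.987), and for Slc7a11 Scg3 (0.981) and Aldoc (0.980), an astrocyte marker of the list above. For Glul they were Phxr5 (0.967) and Apba2 (0.962), for Slc1a1 Crim1 (0.981) and Ska3 (0.969), and for Srr Klra15 (0.925) and Lztfl1 (0.889). These values describe 9 arrays in 3 groups and were picked as the highest among all genes tested, clone names left out. Those of Slc1a2, Slc1a3 and Slc7a11 include the far lower value of hippocampus Sox2-GFP replicate C. That value was not well above background for Slc1a3 and Slc7a11, and no correlation without this array is given.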

How the data were processed

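Gene expression was measured on 9 one-colour Agilent arrays, 3 in each group. Per the file headers, each deposited file holds spot intensities extracted with Agilent Feature Extraction 9.5.1.1, with a background-corrected processed signal that was not normalized between arrays, and with other 0 or 1 columns that mark whether a spot is outlying, saturated or well above background. Of tools, the submitters' processing notes list limma. In the deposited file of DCX-DsRed replicate A, 47 gene names differed from those in the other files, so names were taken by probe from another file, and accessions and older symbols were updated through RefSeq (GRCm38.p6), except for the 9 genes. No probe coordinates are reported, since their build is not given in the sources used here.

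Control and outlier spots were removed, repeated spots averaged, and 464 probes lacking a value on some array dropped. Log2 processed intensity minus the array's 75th percentile was used. Of 40710 probes, 36779 passed the filter (well above background on at least 3 arrays), and each gene was read by its brightest probe on average. Groups were compared with lmFit and eBayes of limma 3.58.1 (R 4.3.3), using the 9 arrays together (6 residual degrees of freedom), and p-values were adjusted over 24897 genes by the Benjamini-Hochberg method. The procedure was tested on simulated data first, for the hippocampal comparison. It recovered 9% of 100 genes given a log2 change of 2 and 70% of those given a change of 4. A gene that was not called may therefore still differ.

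The 9 genes, the pathway lists and the marker lists were chosen with earlier results of these data known. The 9 genes are named in every comparison. Of each pathway list, the genes past the threshold (up to 3) are named or, where none passed, the gene with the smallest p, and for each of the 9 the 2 genes of highest correlation, without clone names; 1 of these is not reported here. Replicate letters were tested for pairing by the correlation of deviations from the group means, which lay between -0.04 and 0.12, so they were not used to pair samples. Alternatives covered the scaling, background correction, filter, probe choice, outlier spots, slide, replicate block, arrays in the fit, prior, and leaving out each array.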

Additional observations from a re-analysis of the deposited data

How the results depend on the processing

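Slc7a10 kept its direction in all 22 alternative fits of both comparisons with DCX-DsRed cells and lost its call only without DCX-DsRed replicate A. With all arrays the numbers of all genes called were 797 between the hippocampal groups, 100 between the regions and 380 for SVZ minus DCX-DsRed. With slide as a fixed block they were 2043, 2155 and 801, and as a random block 838 for SVZ minus DCX-DsRed. Between the regions the number was 157 with normexp background correction, 173 with the mean over a gene's probes, 165 with every probe tested and 8 with only the 2 groups in the fit. Leaving out 1 array gave 251 (without DCX-DsRed replicate A) to 785 between the hippocampal groups, 35 (without hippocampus Sox2-GFP replicate A) to 102 between the regions, and 49 (without DCX-DsRed replicate A) to 854 (without hippocampus Sox2-GFP replicate C) for SVZ minus DCX-DsRed. The replicate letters share only a letter, since own-letter arrays correlated best in 4 of 18 cases. With a replicate block the numbers were 486, 13 and 186, and no call of the 9 genes changed, while Slc25a18 (adjusted p = 0.0574) and Grik5 (0.0579) lost theirs.

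Differences that changed sign in an alternative fit were all uncalled with all arrays. For hippocampus Sox2-GFP minus DCX-DsRed, Slc1a1 was 0.27 and Slc1a2 0.46 with the mean over probes. Without hippocampus Sox2-GFP replicate C, Slc1a2 was 2.01 and Slc1a3 1.04, where the lowest values on leaving out an array were -1.61 and -4.09. Slc7a11 was -4.03 with slide as a fixed and -0.28 as a random block, sizes that rest on replicate C, where its probe used was not well above background. Srr was 1.85 with quantile normalization, 0.96 with slide as a fixed block and from -1.77 to 0.35 on leaving out an array (0.35 without DCX-DsRed replicate A). Between the regions, Slc1a1 was -0.19 with the mean over probes and from -0.12 (without hippocampus Sox2-GFP replicate C) to 0.63 on leaving out an array, Srr was 0.085 with the mean over probes and from -1.30 to 0.24 (without SVZ replicate C) on leaving out an array, and Phgdh was 0.11 with the mean over probes. For SVZ minus DCX-DsRed, Slc1a1 was 0.079 with the mean over probes and Srr 0.39 with quantile normalization. Except where arrays or probes differ by construction, the cause was not tested. Within slide 3, with no test, the sign also turned for Slc7a11 (a fall to a level not well above background) and Srr (0.07) between the hippocampal groups and for Slc38a3 (0.03) between the regions. No scaling moved the median of all genes by more than 0.1. The depth limit here is signal over background, which left the probes used for Slc1a3 and Slc7a11 unmeasured on the arrays named in the text.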
